A study of Drosophila melanogaster with 4 samples.

Results

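The genes described here encode the proteins of the cytosolic ribosome of Drosophila melanogaster, together with a few close relatives that share their names. They were chosen by name, as every gene whose single symbol in the platform's probe annotation starts with RpL or RpS, or with RpLP, followed by a digit. This gave 36 of 10805 measured genes, carried by 60 probes, and these 36 stand beside 92 genes of the same name pattern in the RefSeq gene table. Other ribosomal protein genes, such as RpS6, RpL22, RpS5a, RpS10b and RpS19a, were not analysed here. All 36 matched the RefSeq table by gene ID under the same symbol.

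RNA of pole cells, from which the embryo's germ line forms, was compared on 4 Agilent arrays with 2 colours each. All groups carried the germ-line marker EGFP-Vas, by which FACS separated the pole cells of stage 8 to 14 embryos. Fathers in every cross also brought a UAS transgene for the kinase Tao, as the form D168A, which the labels call dominant negative, or as the form D168D, which the sample labels describe as overexpression of tao-1. Driven embryos had nosGal4:VP16/nosGal4:VP16 mothers, so that the driver comes from the female germ line, and non-driven embryos had yw mothers. The mothers' genotype therefore changes together with transgene expression and cannot be told apart from it. Each form was hybridised on an array with the driven RNA labelled by Cy3 and on another with Cy5, and paired values below are given in that order. These 2 arrays of the same 2 RNA sources make 1 replicate per form, and the embryos behind each source were pooled by the sort.

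A ribosome has a small subunit, which reads the messenger RNA, and a large subunit, which joins amino acids and carries a stalk that recruits translation factors. Cells make the ribosomal proteins in near-equal amounts, and in flies the loss of 1 gene copy of many of them gives the Minute phenotype of slow development and thin bristles. Several fly ribosomal proteins are encoded by a pair of genes, and in some pairs 1 of the copies is known for enriched expression in the germ line of the adult gonad.

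All values are log2 ratios of driven over non-driven cells, where 1 means 2-fold. Form values average the 2 arrays, and ± is how far each array lies from the average, a spread of labelling and hybridisation that holds no biological variation. Ratios carry no expression level, so it cannot be read from them how strongly a member was expressed or whether the sorted cells held their germ-cell markers. Fewer cells of a type and less RNA per cell cannot be told apart in such bulk RNA. Driven cells carried 7.5-fold more Tao RNA under D168A and 8.08-fold more under D168D, which is no independent check, since the direction of the ratios was read partly from Tao. Over all genes the array medians lay between -0.0023 and 0.014. Whether the software had centred the ratios is not known here, so these medians cannot show if most genes shifted together. Of the germ-cell markers, 6 were measured, and their medians were 0.07 with D168A and 0.06 with D168D. The sign of the median depended on the array, at 0.16 and -0.07 on the D168A arrays and 0.27 and -0.09 on the D168D arrays. Markers of muscle (2 genes), neurons and glia (4), epidermis and trachea (2), hemocytes and fat body (3), midgut and yolk (2) and gonadal soma (2) had medians between -0.06 and 0.22 with D168A and between -0.11 and 0.24 with D168D. Their part in the results below was not tested.

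Most of the measured ribosomal protein genes differed little between driven and non-driven cells. The median of the 36 genes was -0.04 with D168A and -0.09 with D168D, beside 0.01 and -0.01 over all genes. No member was at least 2-fold higher or lower on both arrays of a form, a size that 0.157% of all genes reached with D168A and 0.167% with D168D. The interquartile range of the members ran from -0.09 to 0.01 with D168A and from -0.24 to 0.07 with D168D. A few members departed from the rest. RpL37-1 was lower in both forms and RpLP0 was higher with D168A. Close to 0 with D168A and lower with D168D were 4 paralogs known for germ-line expression, which were grouped after their values had been seen. Whether other members belong with these 4 was not checked. The other 7 members that belong to gene pairs had medians of 0.02 in both forms.

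**Figure D1:**
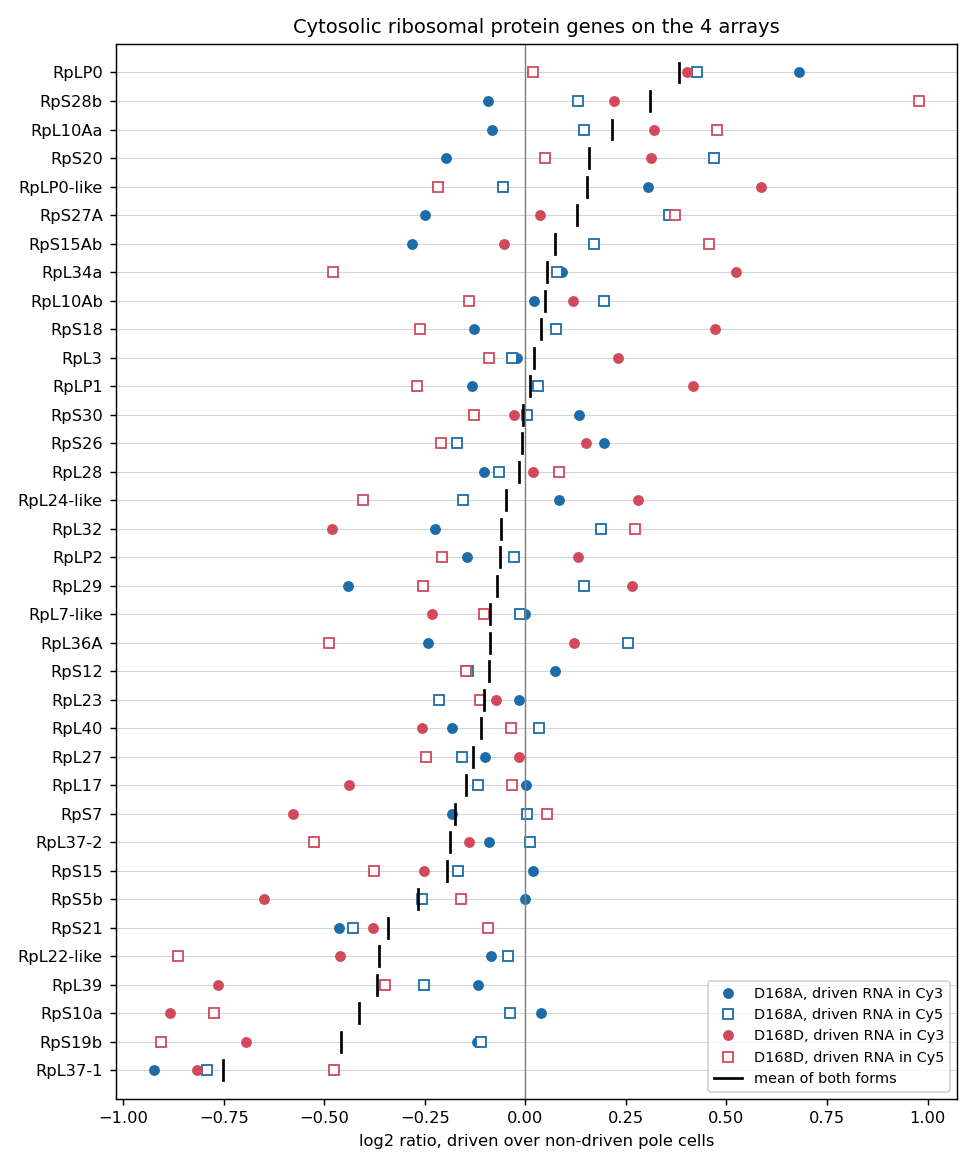
Log2 ratio of driven over non-driven pole cells (x axis) for each of the 36 genes (y axis), ordered by the mean of both forms (black bar). Filled circles are arrays with driven RNA in Cy3, open squares those with it in Cy5, blue D168A and red D168D. RpL37-1 lies at -0.48 or below on all 4 arrays, while RpS10a and RpS19b lie at -0.70 or below with D168D alone.

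Below 0 on both arrays were 12 of the 36 genes (33.3%) with D168A, where the share over all genes was 21.5%, and 16 (44.4%) with D168D, beside 24.1%. Above 0 on both arrays were 4 genes with D168A and 6 with D168D, beside 24.4% and 23.3% of all genes. On 4 of 4 arrays, 9 members (25%) were below 0 and 1 was above, where 8.26% and 9.33% of all genes were. These 9 were RpL37-1, RpS19b, RpL39, RpL22-like, RpS21, RpS5b, RpL27, RpL23 and RpL7-like, and the 1 above was RpLP0. Membership in such a count says nothing of size, since RpL7-like was at -0.0014 on 1 array and RpS5b at -0.0011.

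Among the large-subunit proteins, RpL37-1, one of a pair of genes for the zinc-binding protein RpL37, departed furthest. Its log2 ratio was -0.92 and -0.79 on the D168A arrays, and -0.82 and -0.48 on those of D168D. It was thus below every other member on both D168A arrays. In the form means RpL37-1 was 1.81-fold lower with D168A (-0.86 ± 0.07) and 1.57-fold lower with D168D (-0.65 ± 0.17), read from 1 probe. The other gene of the pair, RpL37-2, was at -0.04 ± 0.05 for D168A and -0.33 ± 0.19 for D168D. RpL37-1 was the single member at least 1.5-fold lower on both arrays of D168A, as were 0.074% of all genes.

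RpL39, a small protein that lines the exit tunnel of the nascent chain, was at -0.12 and -0.25 on the D168A arrays and at -0.76 and -0.35 on the D168D arrays. All 4 values were below 0, and its form means were -0.18 ± 0.07 and -0.56 ± 0.21. RpL27 was below 0 on 4 of 4 arrays by less, at -0.13 ± 0.03 and -0.13 ± 0.12. RpL23, which lies at the face between the subunits, was at -0.12 ± 0.10 and -0.09 ± 0.02.

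RpL17, another tunnel protein, was at -0.06 ± 0.06 with D168A and -0.24 ± 0.20 with D168D, and RpL40, which is made as a fusion with ubiquitin, was at -0.07 ± 0.11 and -0.15 ± 0.11. RpL3, which shapes the peptidyl transferase centre and was read by 5 probes, was at -0.03 ± 0.01 and 0.07 ± 0.16. RpL32, long used in flies as a reference transcript under the name rp49, was at -0.02 ± 0.21 and -0.10 ± 0.38. RpL28 was at -0.08 ± 0.02 and 0.05 ± 0.03, and RpL36A, which contacts the transfer RNA on its way out, at 0.01 ± 0.25 and -0.18 ± 0.30. RpL29 was at -0.15 ± 0.29 for D168A and 0.0048 ± 0.26 for D168D. For RpL29, RpL32 and RpL36A the arrays of each form lay on opposite sides of 0, so no direction can be given.

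The pair RpL10Aa and RpL10Ab encodes the protein of the mobile L1 stalk. RpL10Aa was at -0.08 and 0.15 on the D168A arrays and at 0.32 and 0.48 on the D168D arrays. It was therefore higher on both D168D arrays (0.40 ± 0.08, 1.32-fold) and on opposite sides of 0 with D168A (0.03 ± 0.11). RpL10Ab was at 0.11 ± 0.09 and -0.01 ± 0.13. RpL34a, also of a pair, was at 0.09 ± 0.01 with D168A, but with D168D its arrays gave 0.52 and -0.48. Over the 15 large-subunit genes other than RpL22-like, the median was -0.06 with D168A and -0.10 with D168D, and 11 and 10 of them were below 0.

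The 3 proteins of the large-subunit stalk bind the translation factors, RpLP0 as the base and RpLP1 and RpLP2 as the flexible arms. RpLP0 was at 0.68 and 0.43 on the D168A arrays and at 0.40 and 0.02 on the D168D arrays. It was above 0 on every array, with means of 0.55 ± 0.13 for D168A (1.47-fold) and 0.21 ± 0.19 for D168D (1.16-fold). The form means of its probes were 0.54 and 0.57 for D168A, then 0.23 and 0.19 for D168D, where 1 probe was below 0 on the Cy5-driven array. RpLP1 was at -0.05 ± 0.08 and 0.07 ± 0.34, and RpLP2 at -0.09 ± 0.06 and -0.04 ± 0.17. The base and the arms of the stalk thus had unlike ratios with D168A, a difference that was not tested. At a smaller size of 0.32 on the log2 scale, RpLP0 was the single member above it on both D168A arrays, beside 1.75% of all genes. Lower by that size on both were 2 members, RpL37-1 and RpS21, beside 0.694% of all genes.

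In the small subunit, RpS21, in flies also known as the overgrowth gene oho23B, was at -0.46 and -0.43 on the D168A arrays and at -0.38 and -0.09 on the D168D arrays. It was lower on every array, by 1.36-fold with D168A (-0.45 ± 0.02) and 1.18-fold with D168D (-0.24 ± 0.14). RpS15, which lies in the head of the subunit near the decoding site, was at -0.07 ± 0.09 for D168A and -0.31 ± 0.06 for D168D. RpS28b, of the messenger RNA exit channel, gave -0.09 and 0.13 for D168A, then 0.22 and 0.98 for D168D. Its mean with D168D (0.60 ± 0.38) was the highest of all members in that form, but rested mainly on the array with driven RNA in Cy5.

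RpS7 was at -0.09 ± 0.09 with D168A and -0.26 ± 0.32 with D168D, and RpS18, a head protein at the bridge between the subunits, at -0.03 ± 0.10 and 0.10 ± 0.37. RpS26, next to the exit of the messenger RNA, was at 0.01 ± 0.18 and -0.03 ± 0.18. RpS12, which in flies takes part in the competition that removes Minute cells, was at -0.03 ± 0.11 and -0.15 ± 0.0016 over 5 probes. RpS20 was at 0.14 ± 0.33 and 0.18 ± 0.13, and RpS15Ab, of a pair, at -0.06 ± 0.23 and 0.20 ± 0.25.

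RpS27A, made as a fusion with ubiquitin, was at 0.05 ± 0.30 with D168A and 0.20 ± 0.17 with D168D, and RpS30, made as a fusion with a ubiquitin-like protein, at 0.07 ± 0.07 and -0.08 ± 0.05. Over the 11 small-subunit genes outside the germ-line paralogs the medians were -0.03 in both forms, with 6 of 11 below 0 in each.

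The 4 genes grouped here as paralogs with enriched expression in the adult germ line were below 0 on both D168D arrays. They are RpS5b, RpS10a, RpS19b and RpL22-like, the variant partners of widely expressed RpS5a, RpS10b, RpS19a and RpL22. They were grouped from background knowledge after their values had been seen, so their shared direction is a description. No expression data were used to check whether other members belong with them. RpS10a was at 0.04 and -0.04 on the D168A arrays and at -0.88 and -0.77 on the D168D arrays. Its 2 D168A arrays bracketed 0 closely, while both D168D arrays were low, for a mean of -0.83 ± 0.05 (1.78-fold lower).

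RpS19b gave -0.12 and -0.11 for D168A, then -0.70 and -0.91 for D168D, so that every D168D value was below every D168A value, and its D168D mean was -0.80 ± 0.11 (1.74-fold lower). RpL22-like gave -0.08 and -0.04 for D168A, then -0.46 and -0.86 for D168D, with a D168D mean of -0.66 ± 0.20 (1.58-fold lower). The probes of RpL22-like gave -0.49 and -0.83 with D168D, and -0.002 and -0.13 with D168A. For RpS5b the separation was incomplete, with -0.0011 and -0.26 for D168A, then -0.65 and -0.16 for D168D, where the mean was -0.41 ± 0.24. The D168D means of RpL37-1 and RpL39, which are outside this group, were lower than that of RpS5b.

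**Figure D2:**
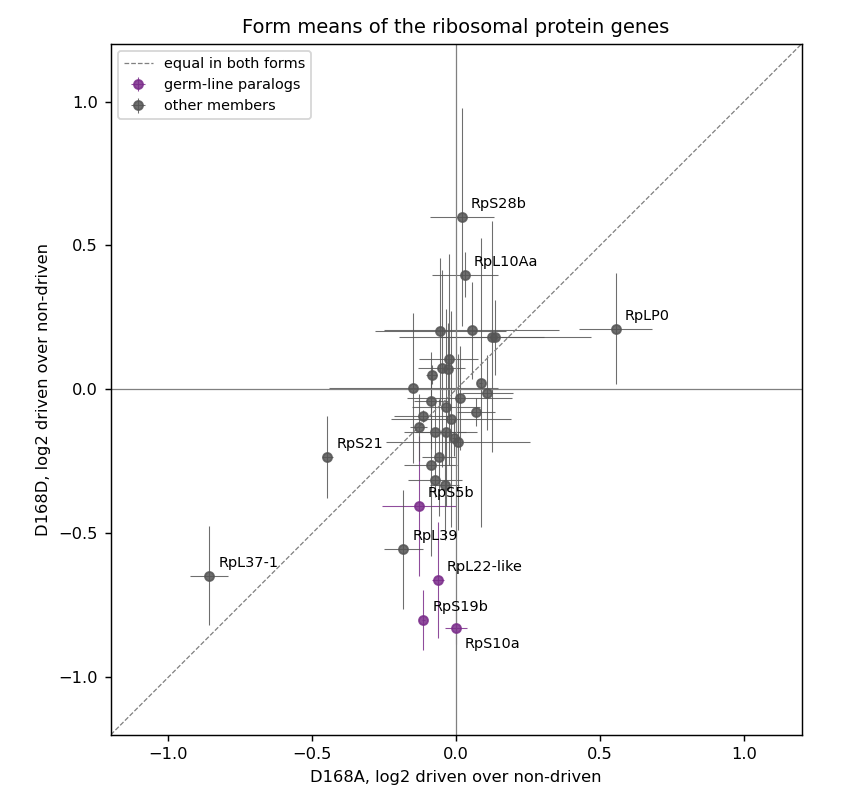
Mean log2 ratio of each member with D168A (x axis) and with D168D (y axis); bars reach the 2 arrays of a form, purple marks the 4 germ-line paralogs, and the dashed line marks equal ratios. RpS10a, RpS19b and RpL22-like lie near 0 on the x axis and at -0.66 or below on the y axis, RpL37-1 is low on both and RpLP0 is highest on the x axis.

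With D168D, 2 members, RpS10a and RpS19b, were at least 1.5-fold lower on both arrays, as were 0.315% of all genes. At the size of 0.32 there were 5 lower members, RpS10a, RpS19b, RpL22-like, RpL37-1 and RpL39 (13.9% of 36), beside 2.15% of all genes, and 0 higher members, beside 3.13%. Over the 4 germ-line paralogs the median was -0.09 with D168A and -0.73 with D168D. Over the other 32 members it was -0.03 with D168A and -0.05 with D168D. This split was made after the values had been seen, so the gap between its medians is a description. Of the 6 germ-cell markers, osk, which directs pole plasm assembly, departed furthest, at -0.44 ± 0.21 for D168A, below 0 on both arrays, and 0.05 ± 0.0047 for D168D. The piRNA-pathway gene aub had 0.16 for D168A and -0.12 for D168D, and was below 0 on both D168D arrays. The other 4, gcl, ovo, piwi and tud, had form means above 0, from 0.03 to 0.10 for D168A and from 0.06 to 0.24 for D168D. For ovo and tud, however, the arrays of each form lay on opposite sides of 0, as did those of gcl with D168A and of piwi with D168D. The part of germ-cell numbers in the paralogs' values was not tested. Among non-members, the eIF4E variant eIF4E3, picked from 36 initiation factors after its values were seen, was at -0.12 ± 0.09 and -0.73 ± 0.11. The other eIF4E genes on that list were not low in this way with D168D. Their D168D means were 0.54 for eIF4E1, -0.06 for eIF4E4, 0.02 for eIF4E5, -0.03 for eIF4E6, -0.0023 for eIF4E7 and -0.10 for eIF4EHP.

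**Figure D3:**
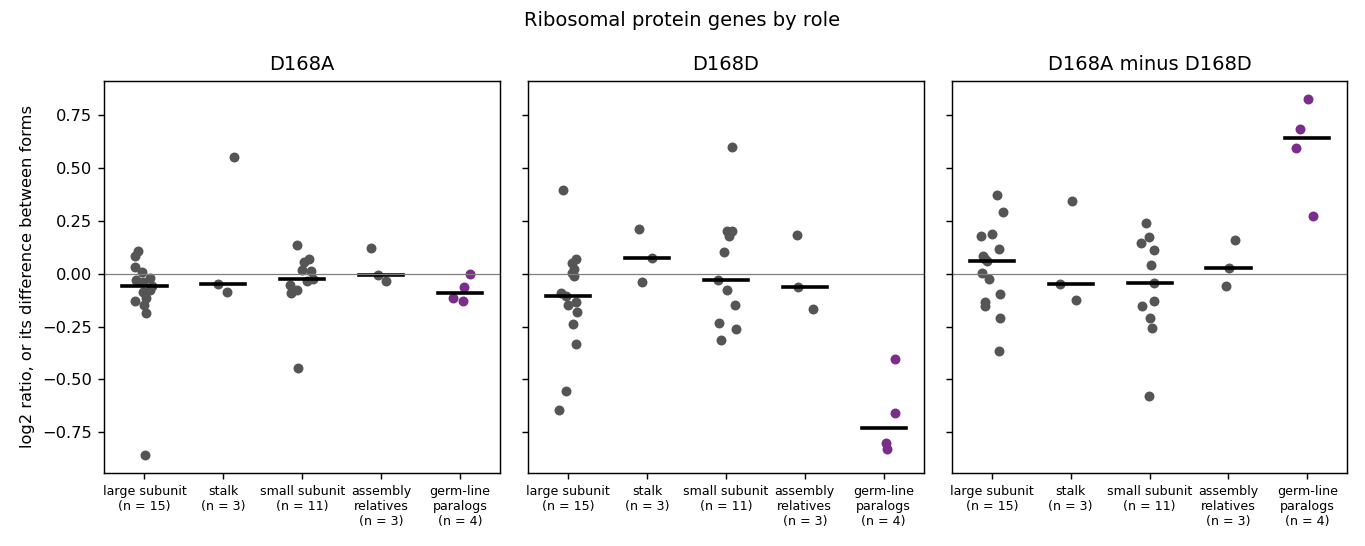
Form means with D168A (left) and D168D (middle) and the difference between forms (right) on the log2 scale, for large-subunit, stalk and small-subunit genes, assembly relatives and the germ-line paralogs; each point is a gene and each bar a median. The bar of the 4 germ-line paralogs, grouped after their values had been seen, is at -0.09, -0.73 and 0.64 in the 3 panels.

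The other 7 members that belong to gene pairs, RpL10Aa, RpL10Ab, RpL34a, RpL37-1, RpL37-2, RpS15Ab and RpS28b, had no shared direction, with medians of 0.02 in both forms and with 3 of 7 below 0 in each. Copies of a pair can share sequence, and since no probe sequence was used here, how far a probe separates a gene from its partner is unknown.

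A set of 3 members are relatives of ribosomal proteins known from yeast counterparts to act in assembly of the large subunit rather than in the finished ribosome. RpL7-like was at -0.0073 ± 0.01 with D168A and -0.17 ± 0.06 with D168D. RpL24-like was at -0.04 ± 0.12 and -0.06 ± 0.34, and RpLP0-like at 0.12 ± 0.18 and 0.18 ± 0.40. RpLP0-like had opposite signs on the 2 arrays of either form, unlike RpLP0, whose 4 values were above 0.

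The forms were then set against each other within each dye orientation. Driver and mothers had the same genotypes in both crosses. No member differed 2-fold in both orientations, where 0.139% of all genes did. RpS10a had the higher ratio with D168A, by 0.92 in the Cy3 orientation and by 0.74 in the Cy5 one (mean 0.83 ± 0.09, 1.78-fold), the single member past 1.5-fold in both, beside 0.546% of all genes. RpS19b was higher by 0.58 and 0.80 (0.69 ± 0.11) and RpL22-like by 0.38 and 0.82 (0.60 ± 0.22). These 3 were the members higher with D168A by at least 0.32 in both orientations (8.33%), beside 2.56% of all genes.

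In the other direction RpL10Aa had the lower ratio with D168A, at differences of -0.40 and -0.33 (-0.37 ± 0.04), the single member lower by 0.32 or more in both, beside 1.68% of all genes. RpS28b had differences of -0.31 and -0.85 and so missed that size by little on 1 orientation. RpS5b differed by 0.65 and -0.10, and its difference had no settled sign. RpLP0 differed by 0.28 and 0.41 (0.34 ± 0.06). The median difference of all 36 was 0.05, beside 0.03 over all genes, and it changed sign with the dye, at -0.09 in the Cy3 orientation and 0.09 in the Cy5 one. Across the members the differences in the Cy3 and Cy5 orientations correlated at r = 0.13 and rho = -0.02, beside r = -0.21 over all genes. No test of these differences was made, as a form has 1 replicate.

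What both forms shared was tested in limma over all 10805 genes, on the 2 form means against 0 and with 1 residual degree of freedom per gene. At an adjusted p under 0.05 limma called 0 members, beside 0.0555% of all genes, with 1 member higher and 5 lower at an unadjusted p under 0.05. The unadjusted shares over all genes were 8% higher and 5.16% lower. RpL37-1 came nearest, at -0.75 (SE 0.096, limma adjusted p = 0.194), lower on 4 of 4 arrays. RpS21 was at -0.34 (SE 0.096, limma adjusted p = 0.346) and RpL39 at -0.37 (SE 0.117, limma adjusted p = 0.362). RpLP0, the 1 higher member, was at 0.38 (SE 0.113, limma adjusted p = 0.354). RpS19b and RpS5b, the other members under the unadjusted threshold, were at -0.46 and -0.27, with limma adjusted p of 0.375 and 0.378. For RpS19b and RpS10a (-0.41, limma adjusted p = 0.412) the common mean averages a value near 0 and a low one.

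Nothing in the labels says that a form's cells came from more than 1 collection. The p-values rest on how far apart the 2 forms lie, in the gene itself and pooled over all genes. The pooled part had a weight of 4.18 degrees of freedom, against 1 for the gene. That distance between forms may be technical. The limma adjusted p of RpL37-1 depended on the setting. It was lowest, at 0.0733, without the genes listed at 0 on some array, a set that holds 0 of the 36 members and 471 of all genes. The values of RpL37-1 itself are the same in that setting. It was highest, at 0.641, on the Cy5-driven arrays alone. Across the 36 genes the form means correlated at r = 0.48 and rho = 0.57, and without the germ-line paralogs at r = 0.61 and rho = 0.60. Genes are not independent replicates, and over all genes r was 0.38. The arrays within a form agreed less in order: across the members they gave r = 0.37 and rho = -0.19 for D168A, and r = 0.30 and rho = 0.15 for D168D, beside r of -0.10 and 0.01 over all genes. Arrays of different forms in the same dye orientation gave r = 0.37 across the members in Cy3 and also in Cy5, beside 0.36 and 0.15 over all genes. These share a dye orientation, and its part in the correlation of the form means was not tested.

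How well the 2 arrays of a form agreed limits these readings. For the members the arrays lay at a median distance of 0.09 from the form mean with D168A and 0.17 with D168D, beside 0.11 and 0.16 over all genes, and it was wider with D168D for 27 of 36 members (75%) and for 6479 of 10805 genes (60.0%). The arrays of a form lay on opposite sides of 0 for 20 members with D168A and 14 with D168D, beside 5772 and 5552 of all 10805 genes. With D168D, 11 of those 14 were above 0 on the Cy3-driven array and below it on the Cy5-driven one, whereas with D168A 7 of 20 were. This split was not counted over all genes, so it has no background. Whatever the sign, the Cy5-driven array was the higher one for 20 of 36 members with D168A and 16 with D168D. Over all 10805 genes it was for 5604 and 5316. The members whose arrays agreed best over both forms were RpL28, RpL7-like, RpS10a and RpS12, at mean distances of 0.026, 0.035, 0.047 and 0.055. RpL28 averages 3 probes that disagreed on single D168D arrays, at -0.12, -0.38 and 0.55 on the first and -0.33, 0.60 and -0.01 on the second. RpS12 averages 5 probes that ran from -0.60 to 0.51 on the Cy5-driven D168D array, and its D168A arrays gave 0.07 and -0.14. The least agreement was that of RpL32, RpLP0-like, RpL36A and RpL29, from 0.276 to 0.292. Measured from the form mean, the Cy5-driven array lay at a median of 0.018 with D168A and -0.056 with D168D, beside 0.0065 and -0.0027 over all genes.

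**Figure D4:**
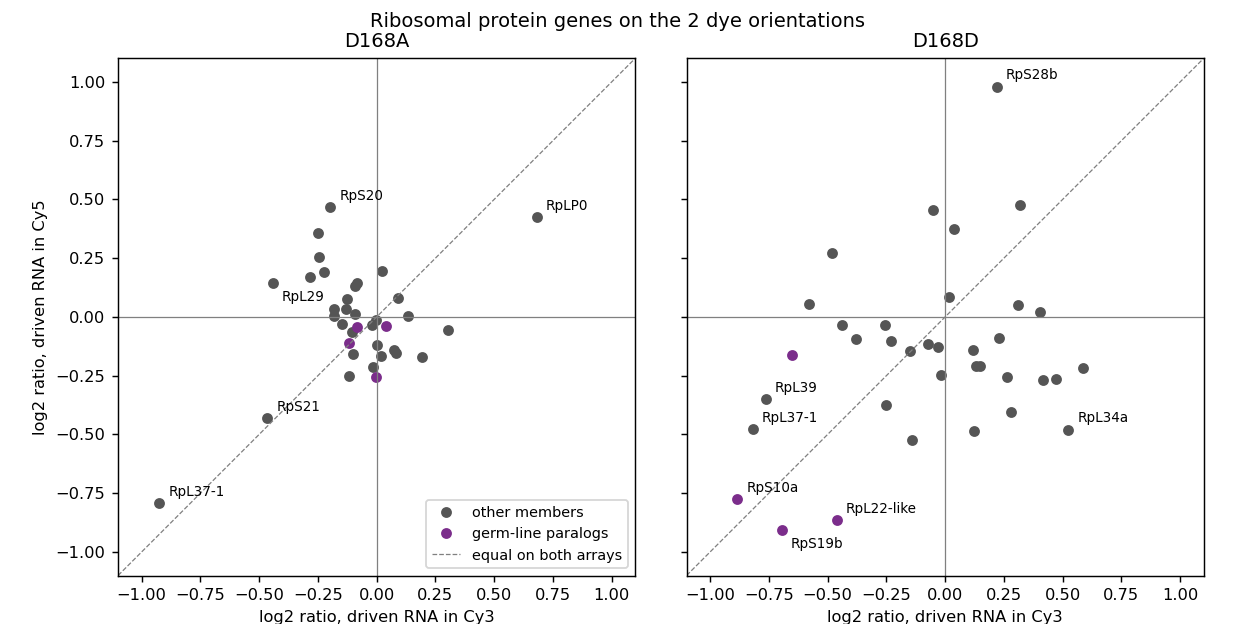
Log2 ratio of each member on the array with driven RNA in Cy3 (x axis) and in Cy5 (y axis), for D168A (left) and D168D (right); purple marks the germ-line paralogs and the dashed line equal values. RpL37-1 and RpS21 with D168A, and RpS10a and RpS19b with D168D, lie low on both axes, while RpL34a with D168D is at 0.52 and -0.48.

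Of the 36 members, 20 had 1 probe, 12 had 2 and 4 had more. Among the 16 with several, the probe means lay on both sides of 0 for 7 genes with D168A and 8 with D168D, and their range was wider with D168D for 12. The probes of RpL32 gave -0.61 and 0.40 with D168D and -0.04 and 0.0021 with D168A, so the small mean of RpL32 hides opposite readings in D168D. The 5 probes of RpS12 ranged over 0.764 with D168D and over 0.154 with D168A. With D168D, the probes of RpS15Ab gave -0.15 and 0.55, and those of RpS7 gave -0.59 and 0.06. The form means of the probes lay within 0.063 of each other for RpLP0, RpLP2 and RpL27, but on single D168D arrays they did not agree so well. The RpLP0 probes gave 0.18 and 0.62 on the Cy3-driven array, then 0.28 and -0.24 on the Cy5-driven one. Those of RpLP2 gave 0.31 and -0.05, then -0.45 and 0.04, and those of RpL27 gave -0.16 and 0.13, then -0.08 and -0.42. RpL37-1, RpS10a, RpS19b, RpS5b, RpS21, RpL39, RpL10Aa and RpS28b have 1 probe each, and their values have no such check.

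**Figure D5:**
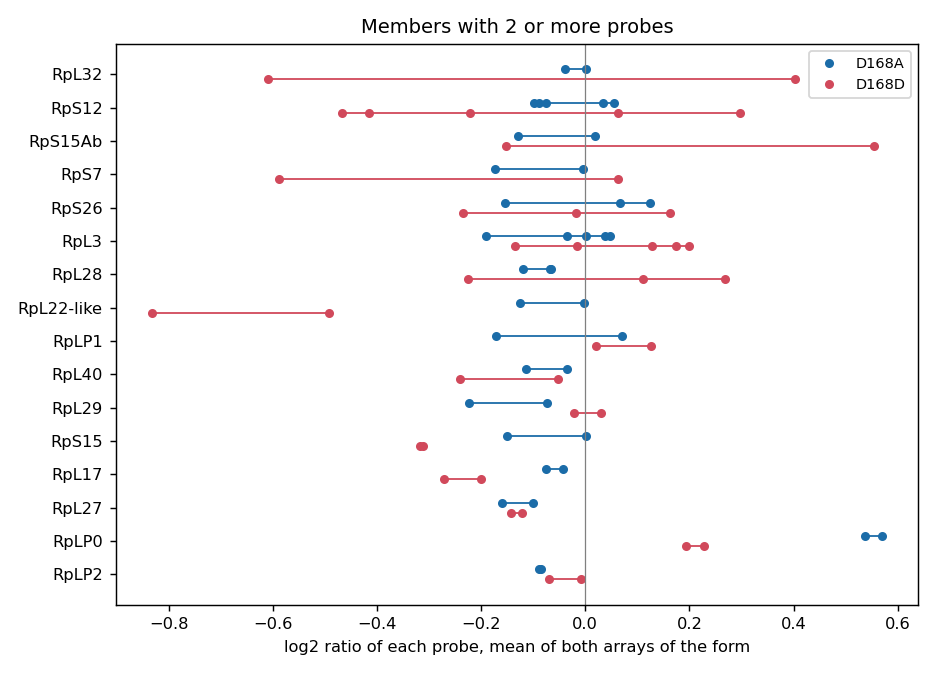
Mean log2 ratio of each probe over the 2 arrays of a form (x axis), for the 16 members with several probes (y axis), in blue for D168A and red for D168D; lines join the probes of a gene. RpL32 has the widest range, 1.013 with D168D, and the form means of both RpLP0 probes are above 0.

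Other genes of protein synthesis are given beside the members from lists of names, by their counts and medians. Of 23 genes of ribosome biogenesis and RNA polymerase I, 20 were above 0 with D168A and 15 with D168D, at medians of 0.11 and 0.14, and limma called 0 of them in the contrast common to both forms. The nucleolar helicase gene pit was at 0.22 ± 0.04 with D168A and 0.17 ± 0.35 with D168D, Polr1A, the largest subunit of RNA polymerase I, at 0.20 ± 0.10 and 0.25 ± 0.26, and eIF6, which keeps new large subunits from joining small ones, at -0.13 ± 0.05 and -0.43 ± 0.12. The median of these 23 genes was 0.12 on both D168A arrays, but 0.12 and -0.07 on the D168D arrays, so its sign with D168D depended on the array. With D168D, 13 of 23 lay on opposite sides of 0, 5 were above it and 5 below it on both arrays. Over all genes 5029 of 10805 were below 0 with D168A and 5696 with D168D, beside 3 and 8 of these 23.

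Of 4 elongation factor genes, eEF5 was at 0.10 ± 0.19 and 0.58 ± 0.10, and the list medians were 0.01 and 0.29. Rack1, a protein of the small subunit that the name rule leaves out, was at 0.19 ± 0.14 and 0.05 ± 0.34. Of 36 initiation factor genes the medians were 0.04 and 0.02, and of 65 mitochondrial ribosomal protein genes -0.03 and -0.12, close to those of the cytosolic ones. Below 0 on 4 of 4 arrays were 15 of these 65 and 3 of the 36 initiation factors, beside 9 of the 36 members.

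Of 11 genes that regulate growth or ribosomal protein genes, 3 were above 0 and 3 below 0 on 4 of 4 arrays. Trf2, the TBP relative that serves ribosomal protein promoters in flies, was at 0.20 ± 0.04 with D168A and 0.51 ± 0.31 with D168D, and Tsc1, a brake on TOR signalling, at 0.25 ± 0.05 and 0.31 ± 0.21. Irbp18, the partner of the Minute-response factor Xrp1, was at -0.30 ± 0.14 and -0.52 ± 0.15. The TOR target S6k was at -0.14 ± 0.07 and -0.07 ± 0.04. In limma, 0 of these 11 genes were called in the common contrast.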

How the data were processed

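Each feature's deposited value is a log10 ratio. Per the submitters' processing notes, the authors used Agilent Feature Extraction 7.1, whose settings for background and dye the sources used here do not give. That software and the limit of 2 on either side, or 100-fold, gave the log base. The values were used as deposited, since every zero on the Cy3-driven arrays is a negative zero (446 and 583 features), as a turned sign leaves it, and since Tao is high on all 4 arrays. Of 22575 features, 17329 had 1 gene symbol and were averaged into 10805 genes after conversion to log2. A size had to be reached on both arrays of a form, or in both dye orientations. The contrast common to both forms was fitted in R 4.3.3 by limma 3.58.1 (lmFit, eBayes), two-sided, Benjamini-Hochberg adjusted over all genes, after a trial on simulated data. No intensities were used, and the number of arrays limits precision. Named were members past a size, the extremes of each contrast, stalk genes, pairs, ubiquitin fusions, RpS12, and the members whose arrays or probes agreed best or least; the rest were added for completeness. Members and lists were chosen with earlier results of these data known. The members' promoters and proteins were not analysed here.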

Additional observations from a re-analysis of the deposited data

Results flagged for a closer look

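RpL28 and RpS30 are given here because both D168A arrays lay on one side of 0 and both D168D arrays on the other. RpL28 had means of -0.08 for D168A against 0.05 for D168D, which is -0.136 for the first minus the second. RpS30 had 0.07 for D168A against -0.08 for D168D, which is 0.147, and its D168A array with driven RNA in Cy5 was at 0.0036. The 3 probes of RpL28 had D168D means from -0.23 to 0.27, a range of 0.494. Neither difference was tested. Among the members 2 of 36 (5.56%) had this pattern, and over all genes 531 of 10805 (4.91%).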

How the results depend on the processing

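No paired test of the 2 forms was possible because each form has 1 replicate. Leaving out arrays and the germ-line paralogs in the counts was chosen after seeing the data. Without 1 array, the members' median ranged from -0.0917 to -0.0208 with D168A, from -0.154 to -0.0222 with D168D and from -0.107 to -0.0435 in the common mean, and without 1 array of each form the difference between forms ranged from -0.0856 to 0.0936, changing sign. Members below 0 numbered 19 to 25 with D168A and 19 to 27 with D168D where 1 array alone had to be below 0, by construction no fewer than 12 and 16. The count of members past 2-fold was 0 in each contrast, and by construction a smaller size cannot lower it. It was 1 at 1.5-fold and 3 at a log2 size of 0.32 with D168A, 2 and 5 with D168D, and 1 and 4 for the difference. The 2-fold count was 0 by the mean of both arrays alone, by probe, after centring and on 1 array alone. limma called 0 members in every setting run, where RpL37-1 had the lowest adjusted p of the members in each fit by gene, from 0.0733 to 0.641, and 1 or 2 higher and 1 to 6 lower members had an unadjusted p under 0.05. Without the germ-line paralogs the D168D median was -0.05 and the difference 0.01. Centring, the mean over members, probes on their own, dropping genes listed at 0 or the -like genes moved each median by less than its spread. For a form, that spread is how far the members' array medians lie from their midpoint. For the common mean it was taken between the forms, and for the difference between the dye orientations. Signal over background is unknown.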

Other observations

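On 2 probes annotated to both RpS27A and aru, and so left out of the gene values, the D168A means were 0.09 and 0.07 on the log2 scale, and the D168D means 0.23 and 0.0062. The probe annotated to RpS27A alone gave 0.05 and 0.20 in the forms. Among the mitochondrial ribosomal protein genes, with values chosen after they were seen, mRpL41 was at -0.14 ± 0.06 with D168A and -0.69 ± 0.23 with D168D, and mRpL1 at 0.11 ± 0.01 and 0.62 ± 0.12.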
